A study of Mus musculus with 188 samples.

Results

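The heat shock chaperone genes described here are 10 genes of the mouse, chosen by symbol from 49585 gene rows. Of these, 5 are usually counted as inducible by heat or other protein stress (Hspa1a, Hspa1b, Dnajb1, Hsp90aa1 and Hspb1). The other 5 are usually counted as constitutive (Hspa8, Hsp90ab1, Hspa5, Hspd1 and Hspe1). All 10 were found in the count table, and none was left out for low values unless a sentence says so. They were measured in single basal keratinocytes of the interfollicular epidermis of the mouse tail at postnatal day 20. The cells came from Lrig1-CreERT2/RosaYFP mice, in which a tamoxifen-controlled Cre recombinase driven by Lrig1 turns on a yellow fluorescent protein, and were sorted as negative for CD34, positive for Itga6 and negative for that protein. Each cell is 1 Smart-seq2 library, made from full-length cDNA, with 94 cells on each of 2 plates. All cells form 1 group, with no treated or control cells and no animal named, so the values below are descriptions of spread and relation over cells, without tests. Before sorting, the epidermis had been loosened in cold trypsin overnight and the cells had been stained on ice, per the labels' protocols.

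Chaperones bind unfolded or partly folded proteins and help them reach or keep their shape. HSP70 proteins do so in cycles of ATP use that HSP40 proteins start, HSP90 proteins act later on receptors and kinases, and small heat shock proteins hold unfolded proteins without ATP. Heat shock factor 1 is held inactive in unstressed cells and, when unfolded proteins build up, binds inverted repeats of the bases GAA upstream of the inducible genes. In skin, Hspb1 is known from the upper, differentiating layers, and Krt10, the keratin used here as the mark of a cell that has begun to differentiate, is made as keratinocytes leave the basal layer.

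Promoter sequence is shown for members whose windows hold sites of the kind that stress factors bind. RefSeq promoter windows on GRCm38.p6, from 250 bases before to 50 bases after a start site, were at hand for 7 of the 10 members. The windows of Hspa1a and Hspa1b are 2 near copies, identical at 296 of 300 bases, with the differences C44T, T47C, T249G and C276T, given as the base in Hspa1a, the position counted from 1 at the 5′ end of the window, and the base in Hspa1b. Both hold 1 head-to-head pair of GAA units (GAANNTTC, searched on both strands) and, nearer to the start, 1 CCAAT box, read as ATTGG at position -67. The stretch of Hspa1a at chr17:34972196-34972276 on the minus strand, whose letters Hspa1b shares in full, is printed first, with these motifs in capitals. The stretch of Hspb1 at chr5:135887789-135887848 on the plus strand holds 2 such pairs, in capitals.
Hspa1a: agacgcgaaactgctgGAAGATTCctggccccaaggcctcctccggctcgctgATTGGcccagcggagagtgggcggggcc
Hspb1: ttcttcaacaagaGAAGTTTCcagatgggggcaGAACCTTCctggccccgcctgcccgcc

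Hspe1 and Hspd1 lie head to head on chromosome 1. Of 2 windows of Hspd1, 1 shares 285 bases with the window of Hspe1, read on opposite strands. The other, at chr1:55088194-55088493 on the minus strand, spans the annotated 5′ end of Hspd1. Of the motifs searched, that window held 1 CCAAT box and no heat shock element. The stretch shared by Hspe1 and Hspd1 holds 2 overlapping heat shock elements of 3 units (TTCNNGAANNTTC, either strand). They are in capitals in the Hspe1 sequence at chr1:55088038-55088117 on the plus strand. Hspa5 holds an endoplasmic reticulum stress element (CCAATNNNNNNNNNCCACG, either strand), in capitals at chr2:34771980-34772059 on the plus strand together with 1 further CCAAT box. Elements of this kind are the sites at which ATF6 and NF-Y act on genes for chaperones of the endoplasmic reticulum.
Hspe1: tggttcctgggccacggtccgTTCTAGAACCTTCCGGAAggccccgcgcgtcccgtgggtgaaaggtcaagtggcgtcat
Hspa5: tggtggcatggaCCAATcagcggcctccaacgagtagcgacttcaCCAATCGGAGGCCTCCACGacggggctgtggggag

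These letters are of unequal rarity. Among 32851 RefSeq promoter windows of the same length, 0.603% held the heat shock element of 3 units, 7.86% held a head-to-head pair, which every element of 3 units contains, 37.4% held a CCAAT box and 0.119% held the stress element, which itself starts with a CCAAT box. Of 2 windows of Dnajb1, 1 held CCAAT boxes only and the other held no motif searched. A match is a description of letters and does not show that a factor binds there.

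Total gene counts ranged between 79868 and 1093805 per cell (median 369991), and levels are given as CPM, counts per 1000000 of that total, spike-ins not included. A further read thus added 0.914 CPM in the deepest cell and 12.5 CPM in the shallowest. Every cell passed the quality limits, which were 50000 counts, 1500 detected genes and a mitochondrial share of 15%. The basal keratin Krt14 had a mean of 32410 ± 14096 CPM (SD over all cells), against medians near 0 for the summed lists of other cell types. T cell genes summed to at most 1.18 CPM in any cell, Langerhans cell genes to 142.3 CPM, melanocyte genes to 598 CPM, Merkel cell genes to 161.6 CPM, fibroblast genes to 553 CPM and endothelial genes to 220 CPM, and the median of the fibroblast sum was 3.47 CPM while that of the other 5 lists was 0. Of the listed genes, Cd3e, Cd207 and Cdh5 had no read in any cell. Others were seen, since Dcn of the fibroblast list had a mean of 25.6 CPM and reached 10 CPM in 29.8% of cells. Of the melanocyte list, Pmel reached 10 CPM in 5.85% and Dct in 4.26% of cells. Some reads came from other wells. In 5 genes with most reads in 1 well, another well of the same lettered row held 32.3 reads, and another well of the same column 5.35 reads, per 10000 reads of the source above the 8.25 seen elsewhere. Against 3 times the reads so expected, Krt10 stood higher in 35.6% of cells, so the order of cells with little Krt10 is less certain than its high end.

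The inducible HSP70 genes were present at low levels in most cells and high in few. This spread did not exceed the trend of spike-in RNA at the same mean reads. Of genes with a mean of at least 50 CPM, only 42.01% on plate 1 and 49.1% on plate 2 lay above that trend. A place below it therefore does not show that the spread was technical only. The squared CV (CV is SD over mean) on plates 1 and 2 was 0.950 and 0.530 times the spike-in trend for Hspa1a. For Hspa1b it was 0.575 and 0.414 times. Hspa1a (ENSMUSG00000091971.3, chr17:34969190-34972156 on the minus strand) encodes the main stress-induced HSP70 and ran from 0 to 583 CPM with a median of 22.9 CPM. Hspa1b (ENSMUSG00000090877.3, chr17:34956436-34959238 on the minus strand) encodes a nearly identical protein and ran from 0 to 415 CPM with a median of 38.6 CPM. The plates were alike in this, with medians of 19.6 and 29.9 CPM for Hspa1a and of 37.4 and 40.3 CPM for Hspa1b on plates 1 and 2. A read of Hspa1a was found in 86.7% of cells (25 cells had none) and a level of 10 CPM in 63.3% (exact Clopper-Pearson 95% interval 55.98% to 70.2%). For Hspa1b, 98.4% of cells had a read (3 had none) and 83.5% (77.4% to 88.5%) reached 10 CPM. In 1 cell there was no read of either gene. After each cell was thinned to 79868 reads, the share with a read was 65.96% for Hspa1a and 83.5% for Hspa1b. Hspa1a stood above 3 times the reads expected from the row and column in 62.8% of cells, and Hspa1b in 74.5%.

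Sequence shared between the copies limits these levels. Of the 50-base windows of the Hspa1a transcript, 66.3% also occur in another annotated gene, and 58.8% occur in Hspa1b. How reads that fit both were counted is not given in the sources used here, so the split between the copies is uncertain, and their sum is the firmer value. Hspa1a had more reads than Hspa1b in 66 cells, and fewer in most of the others. The summed CPM of the pair ran from 0 to 892, with a median of 73.9 and a mean of 98.6 ± 101.5 (SD over all cells). The Hspa1a gene also overlaps Gm20481 on the opposite strand, which was at 0 in the table.

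Single cells show how high the pair could stand. Well E11 of plate 1 had the highest Hspa1a, 583 CPM from 210 reads, beside 308 CPM of Hspa1b, 105.6 CPM of Hspb1, 2.78 CPM of Hsp90aa1 and no read of Hspa8. Well A12 of plate 1 had the highest Hspa1b, 415 CPM from 53 reads, beside 156.4 CPM of Hspa1a and 7.82 CPM of Hsp90aa1. Krt10 was 13225 CPM in E11 and 11997 CPM in A12, against a median of 882 CPM, and Krt14 was 3537 and 13155 CPM, against a median of 34405 CPM. The second-highest Hspa1a, 261 CPM in well B1 of plate 2, came with a Krt10 of 1245 CPM and a Krt14 of 36271 CPM. The next cells in Hspa1a were wells A7 of plate 2, A6 of plate 1 and E8 of plate 2. Their Krt10 was 1018 to 1831 CPM and their Krt14 31955 to 46798 CPM. Of these cells highest in Hspa1a, only E11 thus had little basal keratin. After A12 and E11, the next in Hspa1b were mixed, with Krt10 at 591 CPM in well C2 of plate 1 and 45289 CPM in well A10 of plate 2. Cells at the top of one copy were only partly those at the top of the other, since the 18 cells highest in Hspa1a and the 18 highest in Hspa1b had 4 in common.

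The other inducible genes were of 2 kinds. Dnajb1 (ENSMUSG00000005483.10, chr8:83608193-83612653 on the plus strand), the HSP40 partner of HSP70, ran from 2.47 to 895 CPM with a median of 161.8 CPM. Hsp90aa1 (ENSMUSG00000021270.13, chr12:110690605-110702728 on the minus strand), the inducible cytosolic HSP90, ran from 2.78 to 749 CPM with a median of 141.3 CPM. Both had a read in every cell, and they made up 40.0% and 34.3% of the mean inducible sum. Dnajb1 stood above 3 times the reads expected from the row and column in 74.5% of cells, and Hsp90aa1 in 87.8%. Hspb1 (ENSMUSG00000004951.10, chr5:135887919-135889563 on the plus strand), a small heat shock protein, was sparse. It ran from 0 to 298 CPM with a median of 1.96 CPM, had a read in 56.9% of cells (49.5% to 64.1%), and reached 10 CPM in 53 cells, 28.2% (21.9% to 35.2%). The tenth of cells with most Hspb1 held 64.4% of its summed CPM, against 41.97% for Hspa1a, 31.8% for Hspa1b, 28.9% for Dnajb1 and 22.03% for Hsp90aa1. Its highest cells were wells A5 and A10 of plate 2, with 298 and 191 CPM, where Krt10 stood at 25133 and 45289 CPM. The third, well C9 of plate 2 with 173.4 CPM of Hspb1, had 1040 CPM of Krt10.

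Among the constitutive genes, Hsp90ab1 was the most abundant. Hsp90ab1 (ENSMUSG00000023944.14, chr17:45567775-45573271 on the minus strand), the housekeeping cytosolic HSP90, ran from 715 to 3615 CPM with a median of 1899 CPM, and it exceeded Hsp90aa1 in reads in every cell, 94 of 94 on each plate. Its CV over cells was 0.293, and it took 74.3% of the mean constitutive sum. Its squared CV was 1.48 and 1.28 times the spike-in trend at its mean reads on plates 1 and 2. The low CV thus does not mark it as even for its level, though the trend there reaches past the highest spike-in. Hspa5 (ENSMUSG00000026864.13, chr2:34771970-34777547 on the plus strand), the HSP70 of the endoplasmic reticulum known as BiP, ran from 7.42 to 1647 CPM with a median of 357 CPM. The highest cell, well B12 of plate 2, had 599 CPM of Dnajb1 and no read of Hspa1a. Hspa5 shares no 50-base window with another annotated gene.

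Hspd1 (ENSMUSG00000025980.14, chr1:55077835-55088243 on the minus strand) and Hspe1 (ENSMUSG00000073676.4, chr1:55088132-55091307 on the plus strand) encode the mitochondrial HSP60 and its HSP10 lid. They had similar CPM, with medians of 100.6 CPM (3.77 to 349) and 101.9 CPM (4.45 to 323). Hspd1 had more reads than Hspe1 in 94 cells and fewer in 92. Their annotated ends overlap, and no source says whether strand was used in counting, so how reads of the overlap were counted is not known. Hspa8 (ENSMUSG00000015656.17, chr9:40800984-40810087 on the plus strand), the constitutive HSC70 and in many cells an abundant transcript, was low here, from 0 to 140 CPM with a median of 34.6 CPM. A total of 74.8% of its 50-base windows occur in other annotated genes, more than for any other member, and 2 of those genes, Gm15459 and Gm26825, had means of 10.1 and 7.26 CPM. The level of Hspa8 is therefore uncertain.

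Per kilobase of annotated exon, which allows levels to be set side by side between genes, the order began with Hsp90ab1 at 661 ± 194 CPM per kb (SD over all cells). Hspa5 followed at 98.9 ± 68.4, Hspe1 at 77.2 ± 45.04, Dnajb1 at 55.8 ± 49.4, Hspd1 at 42.7 ± 28.95 and Hsp90aa1 at 39.1 ± 24.9 CPM per kb. The lowest were Hspa1b at 20.5 ± 21.1, Hspb1 at 15.6 ± 36.2, Hspa1a at 13.9 ± 20.9 and Hspa8 at 9.20 ± 6.82 CPM per kb. Only the first step, between Hsp90ab1 and Hspa5, was wider than the SDs of its neighbours. Each later neighbour lay within 1 SD of the next. Windows shared with other genes make the places of Hspa8 (74.8%), Hspa1a (66.3%), Hspa1b (62.3%), Hsp90aa1 (58.5%), Hspb1 (51.6%), Hspe1 (44.8%) and Hspd1 (44.8%) uncertain, while Hsp90ab1 (4.49%), Dnajb1 (0.441%) and Hspa5 share little or nothing.

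**Figure D1:**
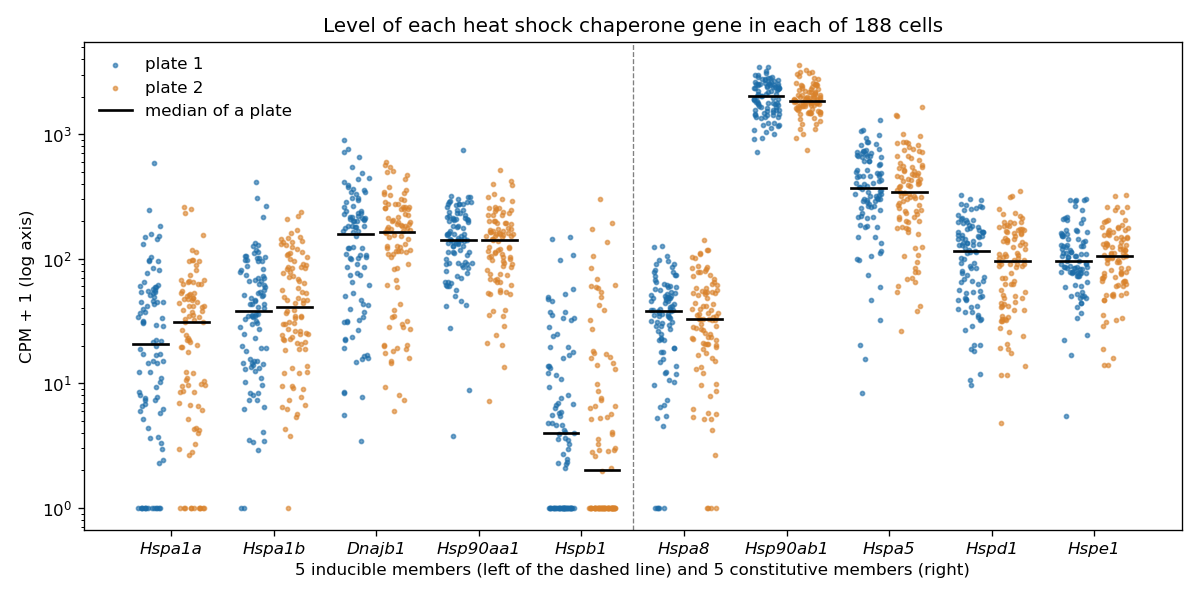
Each point is 1 cell, with the gene's level as CPM plus 1 on a log axis, for plate 1 and plate 2 side by side, and a black line at each plate's median. Hsp90ab1 stays between 715 and 3615 CPM, while Hspa1a, Hspa1b, Hspa8 and Hspb1 reach 0 in some cells.

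Summed over genes, the inducible members ran from 146.8 to 1283 CPM per cell, with a median of 404, and the constitutive members from 1230 to 4430 CPM, with a median of 2634. The constitutive sum was the larger in every cell, 94 of 94 on each plate. The sums were at most weakly related. Spearman's rho of the inducible with the constitutive sum was -0.136 over all cells, -0.0718 on plate 1 and -0.194 on plate 2 (Pearson's r of log2(CPM + 1) -0.142). Scaled by spike-in counts in place of gene counts, the same rho was 0.493, so the sign depends on the scaling.

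Krt10 spread widely, from 185.4 to 45289 CPM with a median of 882 CPM, and its relation to the members differed within each class. Hspa1a and Hspa1b were higher where Krt10 was higher. Their rho with Krt10 was 0.2996 and 0.285 over all cells, 0.358 and 0.321 on plate 1, and 0.242 and 0.278 on plate 2 (r = 0.326 and 0.316). Hsp90aa1, in the same inducible class, ran the other way, with a rho of -0.347 over all cells, -0.262 on plate 1 and -0.409 on plate 2 (r = -0.373). Without the 2 cells farthest from the median Krt10, these values were 0.281, 0.271 and -0.333. Dnajb1 had a rho of -0.0197 and Hspb1 one of 0.102, and for Hspb1, with no read in 81 cells, so weak a value says little.

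Of the constitutive genes, Hspa8 had a rho with Krt10 of -0.262. It was -0.393 among the cells of plate 1 and -0.103 among those of plate 2, and -0.125 after thinning to equal depth. The remaining constitutive members were nearer to 0, with -0.0903 for Hsp90ab1, -0.112 for Hspa5, 0.0201 for Hspd1 and -0.0786 for Hspe1. The inducible sum holds members of either sign and ran most closely with Dnajb1, its largest part (rho 0.766). This sum had a rho with Krt10 of 0.0220 (0.0264 on plate 1 and 0.0396 on plate 2). The constitutive sum had one of -0.144 (-0.194 and -0.0389). Scaled by spike-in counts, the constitutive sum turned to 0.285 (0.261 and 0.287) and the inducible sum stood at 0.345 (0.344 and 0.337).

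By a rule of size, which asks for a rho of 0.3 or more, or of -0.3 or less, in both plates separately, 0 of 10 members were counted. Among 9344 genes that reached 10 CPM in at least 10% of cells, 59, 0.631%, met the rule upwards and 44, 0.471%, met it downwards. Over the same genes the median rho was -0.00458, and 5th and 95th percentiles were -0.1853 and 0.175. Hspa1a and Hspa1b stood at percentiles 98.7 and 98.5 of this distribution, Hsp90aa1 at 0.557 and Hspa8 at 1.58, while the other 6 members lay between 15.0 and 85.2. With a limit of 0.2 the count was 3, with Hspa1a and Hspa1b upwards, beside 1.82% of all genes, and Hsp90aa1 downwards, beside 1.96%.

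**Figure D2:**
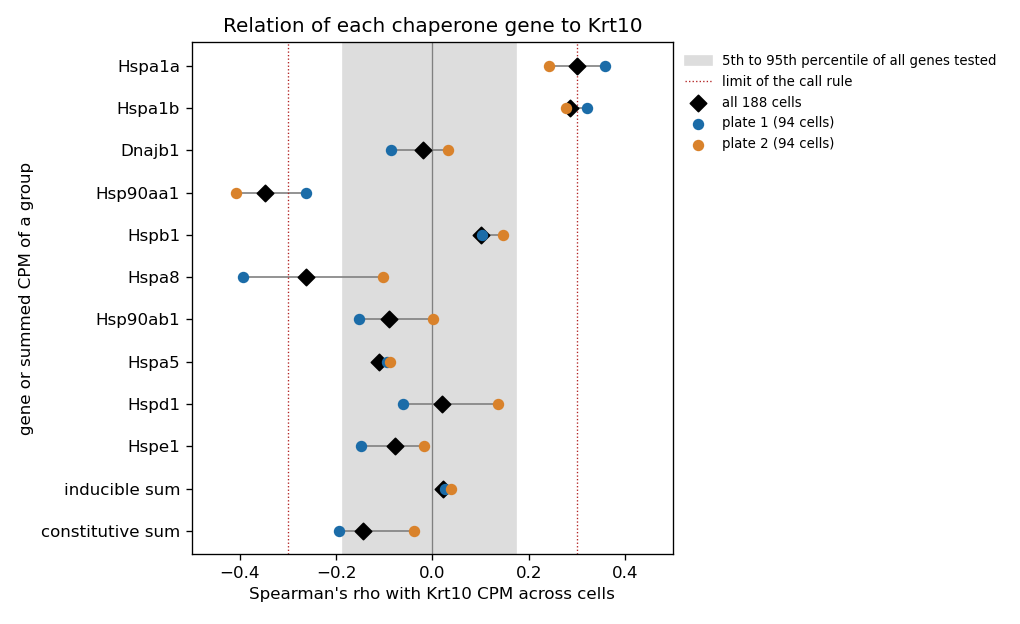
Spearman's rho with Krt10 CPM on the horizontal axis for each member and for both sums, over all cells (diamonds) and on each plate (circles), with the 5th to 95th percentile of 9344 genes in grey and the limits of the rule of size as dotted lines. Hspa1a and Hspa1b lie right of the grey band at 0.2996 and 0.285, Hsp90aa1 and Hspa8 left of it at -0.347 and -0.262.

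Scaling changed the sign of 6 of these 10 values but not of those of the HSP70 pair. With spike-in counts as denominator the median rho of all genes with Krt10 moved to 0.103, and 9 of the members had values between 0.0254 for Hsp90aa1 and 0.453 for Hspa1a, with Hspa8 at 0.00589. Relative to all genes, Hspa1a and Hspa1b were then at percentiles 99.3 and 98.5, Hsp90aa1 at 24.4 and Hspa8 at 19.5. The rule of size then counted Hspa1a and Hspa1b, beside 2.72% of all genes upwards. In a ratio of members the denominator cancels but for the 1 CPM added to each side, while Krt10 still depends on it. The summed pair over Hsp90aa1, each plus 1 CPM, had a rho with Krt10 of 0.423, and of 0.416 on plate 1 and 0.415 on plate 2. Scaled by spike-in counts the same rho was 0.367 (0.339 and 0.338). This ratio was chosen after the members' values had been seen, from the genes with the most opposite relations, so its size is a description of that choice. It was highest in well E11 of plate 1, named above for its HSP70, at 236, and had a median of 0.530.

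**Figure D3:**
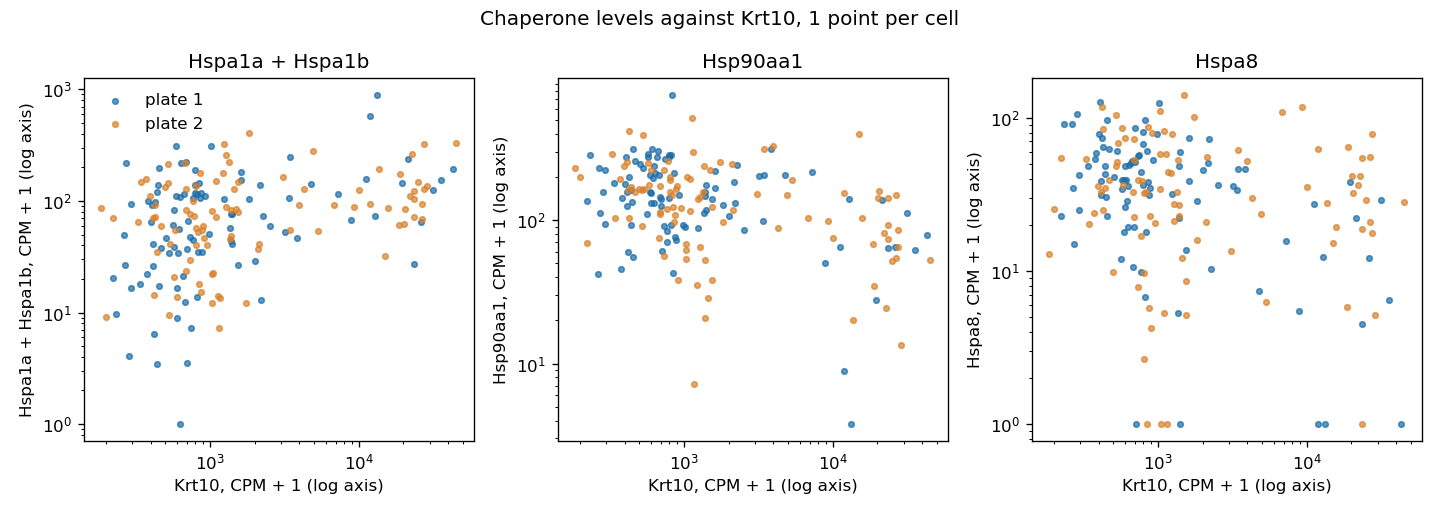
Each point is 1 cell, with Krt10 on the horizontal axis and the summed Hspa1a and Hspa1b, Hsp90aa1 or Hspa8 on the vertical axis, all as CPM plus 1 on log axes. Cells with the most Krt10 lie in the upper part of the HSP70 panel and in the middle and lower part of the Hsp90aa1 panel, with wide scatter in each (rho 0.331, -0.347 and -0.262).

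Other measures moved with Krt10 and with these members. Krt10 had a rho of -0.575 with the summed basal keratinocyte genes, of -0.416 with the summed S phase genes and of -0.258 with the total count of the cell. Hspa1a and Hspa1b had rho values of -0.301 and -0.299 with the basal sum, and of -0.0685 and -0.153 with the S phase sum. Hsp90aa1 had a rho of 0.354 with the S phase sum (0.367 on plate 1 and 0.339 on plate 2) and of 0.191 with the G2/M sum, the highest of the 10 members in both. The part of the cell cycle in the relation of Hsp90aa1 with Krt10 was not tested. Without the 92 cells in which at least 25% of the G2/M list reached 10 CPM, 96 cells remained and the rho of Hsp90aa1 with Krt10 was -0.445 (-0.3002 and -0.547 on the plates). These 92 cells are named G2/M cells below by that rule alone. On that list, Hmgb2 reached 10 CPM in 73.4% and Top2a in 46.8% of all cells. The rule thus does not show that a cell was in that phase, and leaving such cells out does not remove the cell cycle. Given total count and genes with a read, the partial rho with Krt10 was 0.311 for Hspa1a, 0.298 for Hspa1b and -0.334 for Hsp90aa1.

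Krt1, the partner keratin of Krt10, gave like values for some members only. Its rho was 0.346 with Hspa1a (0.404 and 0.263 on the plates) and -0.210 with Hsp90aa1. For Hspa1b it was 0.197, with 0.366 on plate 1 and 0.0405 on plate 2, so that relation was seen on 1 plate. The early differentiation score is the mean z score of Krt10 itself and of genes such as Krtdap, Calm4, Dmkn and Krt1. With this score, rho was 0.274 for Hspa1a, 0.254 for Hspa1b and -0.3002 for Hsp90aa1. Because the score holds Krt10, likeness to the values with Krt10 is partly built in.

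With gene counts as denominator, members of one class did not vary as a unit. Over the 10 pairs of inducible genes rho averaged 0.0181, from -0.274 for Hspa1b with Hsp90aa1 to 0.299 for Hspa1a with Hspa1b, and over the 10 constitutive pairs 0.101, from -0.0332 for Hspa8 with Hspa5 to 0.192 for Hspa8 with Hspd1. The 25 pairs between the classes averaged -0.0262. Scaled by spike-in counts, the inducible pairs averaged 0.132 and the constitutive pairs 0.380, so these means depend on the scaling. Over all pairs of 3685 genes with a mean of at least 50 CPM, the median was 0.0144 and the 95th percentile 0.145. The pair of Hspa1a and Hspa1b, whose promoter windows are near copies, had 0.398 on plate 1 and 0.188 on plate 2, and reads that fit both copies are part of this value to an unknown extent. The pair of Hspd1 and Hspe1, with 1 shared promoter stretch, had only 0.140 (0.0907 and 0.179). Hspa1b and Hsp90aa1 had -0.114 on plate 1 and -0.422 on plate 2. Hspd1 and Dnajb1 had -0.179, the lowest of Dnajb1, with -0.199 and -0.169 on the plates.

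The cells at the top of each gene were also counted over a class. Counting the 18 cells highest in each gene, 62 cells were in the top of 1 inducible gene, 11 of 2 and 2 of 3, and none of 4 or 5, while most were in none. For the constitutive genes these counts were 57, 12 and 3, and none. The same counts were not made for other sets of genes, so they are not a result about these classes.

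**Figure D4:**
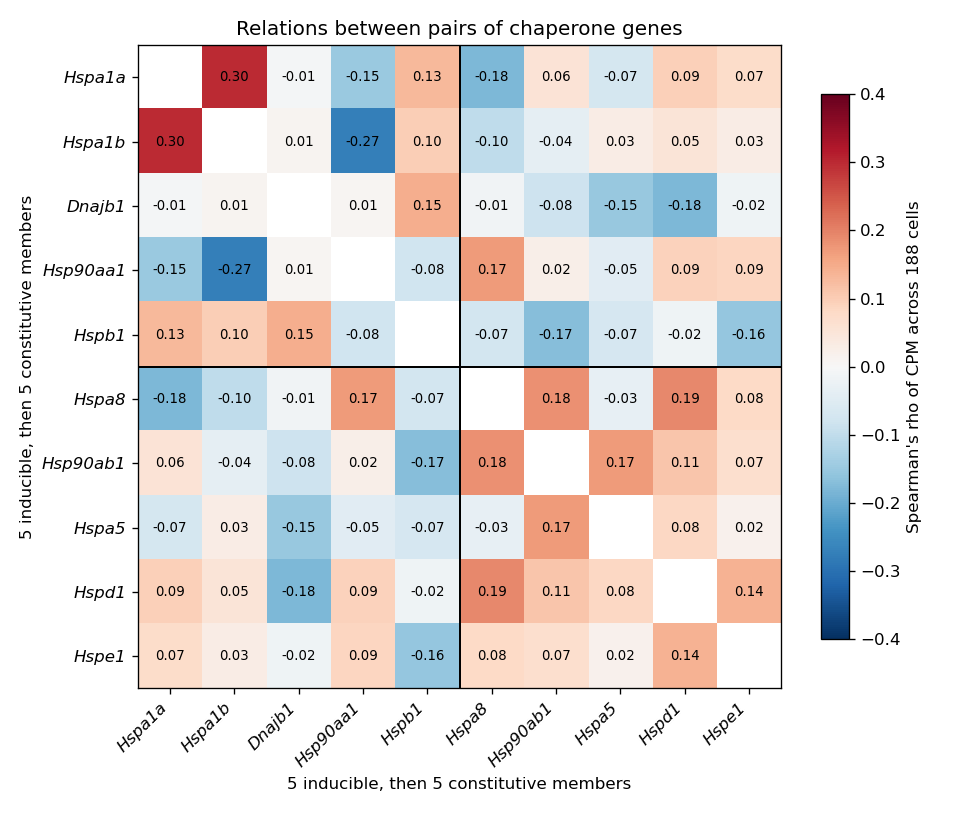
Spearman's rho of CPM over all cells for every pair of members, with the 5 inducible genes first and the 5 constitutive genes after them, lines between the classes and the value in each square. The inducible square holds both the highest value, 0.299 for Hspa1a with Hspa1b, and the lowest, -0.274 for Hspa1b with Hsp90aa1.

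The spread over cells was compared with that of spike-in RNA at the same mean number of reads, fitted on each plate. A gene counted as variable if, in both plates, its squared CV reached 2 times the value expected from the spike-ins, and its mean reached 50 CPM. This held for 0 of the 7 members with that mean, against 2.77% of 3685 genes. Hspa1a, Hspb1 and Hspa8 have lower means and were not examined by this rule, and they lay below the trend on both plates, at 0.950 and 0.530 times for Hspa1a, 0.420 and 0.959 times for Hspb1 and 0.148 and 0.212 times for Hspa8. The nearest was Hspa5, at 1.31 times the trend on plate 1 and 2.00 times on plate 2, followed by Hsp90ab1 at 1.48 and 1.28 times and Dnajb1 at 1.29 and 0.958 times. Hsp90aa1, Hspa1b, Hspd1 and Hspe1 were below the trend on both plates, Hspe1 at 0.304 and 0.330 times. The median of the lower plate value was 0.476 over the 7 members and 0.863 over all genes examined, of which 42.01% lay above the trend on plate 1 and 49.1% on plate 2. For Hsp90ab1, with a mean of 804 and 828 reads, the trend reaches past the highest spike-in at 708 and 581 reads. With spike-in counts as denominator, Hsp90ab1 and Hspa5 met the rule, beside 7.6% of all genes.

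The regulators and other targets of the heat shock response differed in level, with weak relations to Krt10. Hsf1, the main stress-activated factor, had a mean of 35.2 ± 73.2 CPM, Hsf2 had 17.2 ± 32.97 CPM, and Hsbp1, a small protein that binds the factors, had 156.6 ± 133.9 CPM (SD over all cells). Of 14 other targets of the factors, 11 were examined and 0 met the rule of size with Krt10, with a median rho of -0.0417. All genes met it at 0.631% upwards and 0.471% downwards, so a count of 0 among 11 is not a result about these targets. Fkbp4, an HSP90 cochaperone, led them with 218 ± 183.2 CPM and a rho with Krt10 of -0.183. Hspa4, an exchange factor of HSP70, had 190.5 ± 164.2 CPM, and Ubb, a polyubiquitin gene, had 142.6 ± 70.1 CPM. Bag3, often induced together with Hspa1a, had 63.8 ± 81.7 CPM and a rho of -0.0594.

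Other chaperone systems were also looked at with this rule. Beside the 0.631% upwards and 0.471% downwards of all genes, a count of 0 in lists of these sizes is not a result about them. Of 14 cochaperones of HSP70 and HSP90, 14 were examined and 0 met it, with a median rho of -0.00374. Bag1, an exchange factor of HSP70, was the most abundant, at 301 ± 191 CPM with a rho of 0.194, and Stip1, which links HSP70 to HSP90, had 162.8 ± 133.03 CPM. Of 18 genes of the endoplasmic reticulum list 0 met it, with a median of -0.0109. The disulphide isomerase Pdia3 had 500 ± 240 CPM, the lectin chaperone Calr 470 ± 302 CPM and the HSP90 of that compartment, Hsp90b1, 255 ± 215 CPM. Of 7 mitochondrial genes and 8 subunits of the CCT chaperonin, 0 and 0 met it, with medians of 0.0861 and -0.0614. Hspa9, the mitochondrial HSP70, had 257 ± 163.4 CPM, and Cct8, the highest CCT subunit, had 442 ± 261 CPM. Of the early differentiation list 7 of 11 genes met the rule upwards, and 11 of 15 basal genes met it downwards. Those lists were chosen for differentiation and the basal state, with earlier results of these data known. Their counts are thus partly built in and give no measure for the counts of 0.

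Immediate early genes, which respond within minutes to handling as well as to growth factors, had a sum above 0 in every cell. Their summed CPM ran from 62.2 to 3920, with a median of 627, and its rho with the inducible sum was 0.0324 (-0.0194 on plate 1 and 0.117 on plate 2). Scaled by spike-in counts that rho was 0.314 (0.363 and 0.254), so its nearness to 0 depends on the scaling. Ier2 had 159.1 ± 152.1 CPM, Junb 136.3 ± 136.7 CPM and Fos 79.2 ± 131.9 CPM. Single genes of the list were absent or low in many cells, with 10 CPM reached by Fos in 60.1% and by Nr4a1 in 3.72%. For single chaperone members the rho with the immediate early sum ran from -0.144 for Hspa8 to 0.0819 for Hspe1. The part of handling in the levels of the inducible genes was not tested. With the mitochondrial share of counts, the rank correlation (rho) of the members ran from -0.116 for Hsp90ab1 to 0.0933 for Hspa1b, and with the spike-in share from -0.141 for Hspd1 to 0.0422 for Hspb1.

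For the 7 members with a mean of at least 50 CPM and for both sums, the most similar genes were ranked by the lower of the rho values of both plates, among genes with the same minimum mean. Hspa1a, Hspb1 and Hspa8 fell below it and were not searched. Hsp90aa1 had the closest, with Mcm5 at 0.395, Dut at 0.301 and Itgb1 at 0.294. Hspa1b was most like Dbi at 0.297, Krt10 at 0.278 and Krtdap at 0.270. Hspd1 was most like Ccdc115 at 0.274, Nolc1 at 0.264 and Nop56 at 0.263. Hsp90ab1 was most like Cfap298 at 0.277, Agpat5 at 0.249 and Bub3 at 0.235, and Hspa5 like Cd164 at 0.277, Cltc at 0.247 and Iqgap1 at 0.222. Dnajb1 and Hspe1 had weaker ones, with Vgll4 at 0.217, Pdpk1 at 0.208 and Hspb8 at 0.197 for Dnajb1, and Psma3 at 0.205, Chchd2 at 0.199 and Junb at 0.194 for Hspe1. The inducible sum was most like Ctnnd1 at 0.222, Setd6 at 0.214, Trim29 at 0.203, Dnase2a at 0.199 and Pdpk1 at 0.196. The constitutive sum was most like Cfap298 at 0.259, Stt3b at 0.225, Eif4a3 at 0.220, Cdc16 at 0.218 and Pabpc1 at 0.217. Each is the top of a search over 3681 to 3684 genes in the same cells.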

How the data were processed

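Smart-seq2 libraries of sorted tail keratinocytes were analysed, 1 cell each. The deposited values are raw whole-number read counts per gene, without normalization by the authors, and per the submitters' processing notes HTSeq 0.6.0, STAR 2.5.2b, cutadapt 1.13 and the build GRCm38 were used. Their order and settings, the use of strand and the gene annotation are not given in the sources read. Counts without molecular identifiers include amplified copies, so intervals cover counting error only. At the median depth of 369991 counts, 1 read is worth 2.70 CPM.

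Identifiers were matched to symbols without their version (49326 of 49585), and positions come from GENCODE M21. CPM was taken over gene totals without the 92 spike-in rows. Spearman's rho and Pearson's r of log2(CPM + 1) were computed over all cells, per plate and after removal of the 2 cells whose Krt10 lay farthest from its median, as descriptions with no p-value, because cells of 1 group without named animals are not replicates. Doublets were not called, since 1 cell was sorted per well. Spike-in trends were fitted per plate as a1/mean + a0, with a0 at its lower bound. Stray reads between wells were estimated from 5 genes, after other forms of the estimate had been tried. Scripts were tested on simulated data. Python 3.11.15, pandas 2.3.3, scipy 1.17.1 and, for size factors, scran 1.30.0 in R 4.3.3 were used.

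The members and all gene lists were chosen with earlier results of these data known. Named are all members, up to 5 abundant genes of each other list, and the 3 to 5 genes most like a member or sum. The HSP70 sum, its ratio to Hsp90aa1, the comparisons of single members with list sums, the single cells and the printed promoter stretches were chosen after the values or motif positions had been seen. Alternatives covered the denominator, depth, stray reads, cell filters and removal of the cells marked by G2/M genes. They also covered the measure of relation, the differentiation marker, group membership and the limits of each rule.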

Additional observations from a re-analysis of the deposited data

How the results depend on the processing

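Of the recomputed values for the 2 sums, the pair means and the counts of members, 76 stayed within the spread between the plates or within 1.5 times the count, and 25 moved by more, not counting the removal of the cell filter, which every cell had passed. The cause of these moves was not tested. With spike-in counts as denominator, rho with Krt10 was 0.345 for the inducible and 0.285 for the constitutive sum, the sums had 0.493 with each other, the inducible sum had 0.314 with the immediate early sum, pairs averaged 0.132 (inducible) and 0.380 (constitutive), and the counts were 2 members with Krt10 (Hspa1a and Hspa1b, beside 2.72% of all genes upwards) and 2 variable members (Hspa5 and Hsp90ab1, beside 7.6%). The rho of the inducible sum with Krt10 was 0.0653 with scran size factors, 0.0452 with stray reads subtracted, 0.0111 without the 5% of cells with most genes, -0.0519 without G2/M cells, 0.0644 as Pearson's r, 0.133 as a mean z score, -0.0469 against Krt1, 0.0618 against the early differentiation score, -0.0164 without Hspb1 and -0.0569 without Hspa1b. The constitutive sum had -0.255 with Krt10 without G2/M cells and 0.0134 with Krt1, and without G2/M cells the sums had -0.0136 with each other. The count of members with Krt10 was 1 with size factors and 1 with stray reads subtracted (Hspa1b both times, beside 0.761% and 0.493% of all genes upwards), 1 without G2/M cells (Hsp90aa1, beside 1.18% downwards), and 3 at a limit of 0.2 (beside 1.82% upwards and 1.96% downwards). Subtraction removed 2.40% to 42.97% of the counts of a cell, a wide range. Over alternatives that changed the input and kept Krt10 as the marker, its relation was positive in 10 of 10 for Hspa1a (0.274 to 0.453) and for Hspa1b (0.272 to 0.391), and negative in 10 of 11 for Hsp90aa1 (-0.445 to 0.0254). Adding the reads of near copies left the rho of Hspa8 at -0.264. No paired analysis was possible because all cells form 1 group. The shallowest cells, the unnamed animals and the shared sequence of the HSP70 genes and Hspa8 limit what single values show.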
